A study of Homo sapiens with 20 samples.

Results

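The genes described here are 10 genes that the transcription factor ATF4 is known to activate or that belong to serine synthesis: ASNS, PHGDH, PSAT1, PSPH, SHMT2, MTHFD2, CHAC1, DDIT3, TRIB3 and SESN2. They were chosen by name, as rows of the deposited count table that carry these symbols. The table listed 60271 genes, each of the 10 symbols matched 1 row, and all 10 were among the 16522 genes with enough counts to be tested. The cells were MDA-MB-468, a human breast cancer line of epithelial cells that is triple negative and carries high levels of the EGF receptor. The study used epidermal growth factor (EGF) to induce an epithelial-mesenchymal transition (EMT) in them. In all groups the cells were starved of serum for 24 h before the experiment. The control was left without EGF, and the other groups received EGF at 50 ng/mL over 12, 24, 48 or 72 h. Each of the 5 groups had 4 libraries (20 in all), labelled as biological replicates. Every group was seeded and harvested together, so the groups differed in how long EGF was present. All results are from this single line, which was not authenticated after delivery.

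ATF4 is the effector of the integrated stress response. When kinases phosphorylate the translation factor eIF2, most protein synthesis slows while the ATF4 mRNA is translated more, so ATF4 activity is set largely at the level of translation. The protein pairs with C/EBP family factors on composite DNA elements and turns on genes for amino acid synthesis, uptake and tRNA charging, together with stress effectors that feed back on the response. Serine made from the glycolytic intermediate 3-phosphoglycerate supplies the mitochondrial folate pathway with 1-carbon units, and in breast cancer the enzymes of this route are known for their part in proliferation.

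The composite element is written here as TGATGNAA, where N is any base. Of the 10 genes, 8 had an entry in the RefSeq promoter table of GRCh38.p14, and PSPH and SHMT2 had none. The 250 bases before each start were searched on both strands. TGATGNAA was found before 1 of the 2 listed starts of ASNS and before the start of CHAC1, and 3.14% of the 35116 promoters in the table held it. The 2 sites are shown because they are the only matches among the 8 genes searched, each as 30 bases read in the direction of the gene, with the element in capitals.
ASNS (chr7:97872458-97872487, minus strand): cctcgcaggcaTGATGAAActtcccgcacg
CHAC1 (chr15:40953251-40953280, plus strand): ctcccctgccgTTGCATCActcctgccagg
In ASNS the element ended 61 bases before the start and read along the gene, and in CHAC1 it ended 202 bases before it and lay on the opposite strand, so that its reverse complement is printed. Both stretches fall inside an annotated exon of the same gene in GENCODE 29, so other transcripts start further upstream. The CCAAT box, a common promoter element, was found for 6 of the 8 genes searched (PHGDH, PSAT1, MTHFD2, CHAC1, DDIT3 and SESN2) and in 32.0% of all promoters. CACGTG, bound by MYC and USF factors, was found for 0 of the 8 and in 6.34% of all promoters. A gene was counted if any of its listed starts had a match, while the shares of all promoters count each start. Neither printed element overlaps a match of the other 2 motifs. A match describes these letters only and is not a measured binding site.

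The libraries held 15611961 to 25856953 counts each, and mitochondrial genes took 7.69% to 16.9% of the counts of a library, with the highest group median, 15.7%, at 72 h. Replicate 2 of 48 h stood apart from its group. Its mitochondrial share was 16.9%, where the other 48 h libraries had 9.83% to 12.1%, and its counts differed from those of replicates 3 and 4 by a chi-square per degree of freedom of 57.5 and 38.3, where replicates 3 and 4 differed by 4.51. Levels are CPM, counts scaled to the size of the library after TMM normalization, given for replicates 1 to 4 in that order or as mean ± SD over the 4 libraries of a group. Changes are log2 fold changes ± SE, and adjusted p is that of edgeR's quasi-likelihood test over all tested genes, with 0.05 as the threshold. The 4 EGF-treatments share the same 4 control libraries. The labels do not say whether replicates came from separate cultures on separate days, so the tests measure the spread between these samples. The epithelial markers EPCAM (138 to 225 CPM), CDH1 and KRT8 were present in every library, PGR was at 0 counts and ESR1 at 1.91 to 6.53 CPM. Of the 3 leukocyte markers, PTPRC and CD3E had at most 8 and 2 counts in a library, while the lysosomal gene CD68 took their sum from 0.854 to 1.75 CPM in control to 23.7 to 28.4 CPM at 72 h. Of the 5 fibroblast markers, COL1A1 took the sum from 5.09 to 7.90 CPM in control to 13.1 to 14.9 CPM at 72 h, and COL1A2, COL3A1 and LUM had at most 1 count. The 2 endothelial markers, PECAM1 and VWF, had at most 114 and 9 counts in a library. Their sum was 1.68 to 3.26 CPM in control, 0.331 to 0.606 CPM at 12 h and 3.49 to 5.48 CPM at 48 h. In bulk RNA, a lower share of cells of a kind and less RNA per cell cannot be told apart.

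Against control and with TMM, more of the 10 genes rose than fell at each time, and PSPH fell at all 4. At 12 h, 6 of the 10 changed, where 69.4% of all tested genes did, and of the 6, 5 were upregulated and 1 downregulated (32.9% and 36.5% of all tested genes). At 24 h, 8 changed (58.8% of all), 7 up and 1 down (29.2% and 29.6%). At 48 h, 9 changed (45.8% of all), 8 up and 1 down (24.0% and 21.8%). Without replicate 2 of 48 h, which had the highest or lowest value of its group for ASNS, PHGDH, PSAT1, PSPH, MTHFD2 and TRIB3, 8 changed at 48 h and PHGDH was the one lost. The log2 fold changes were then 0.81 for ASNS, 0.35 for PSAT1, 0.10 for MTHFD2, -0.27 for PSPH and 0.37 for TRIB3, in place of 0.73, 0.25, 0.036, -0.30 and 0.41. At 72 h, 7 changed (61.6% of all), 6 up and 1 down (30.6% and 31.0%). The median log2 fold change of the 10 genes was 0.26, 0.48, 0.52 and 0.32 at the 4 times, where the median over all tested genes was -0.054, -0.0071, 0.0099 and -0.0090. At 12 and 72 h the share of the 10 genes that changed was near that of all genes, so these counts say nothing particular about them. SHMT2, CHAC1 and SESN2 were upregulated and PSPH was downregulated at all 4 times. PHGDH passed the threshold only at 48 h, MTHFD2 only at 12 and 24 h, and TRIB3 only at 48 and 72 h.

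**Figure D1:**
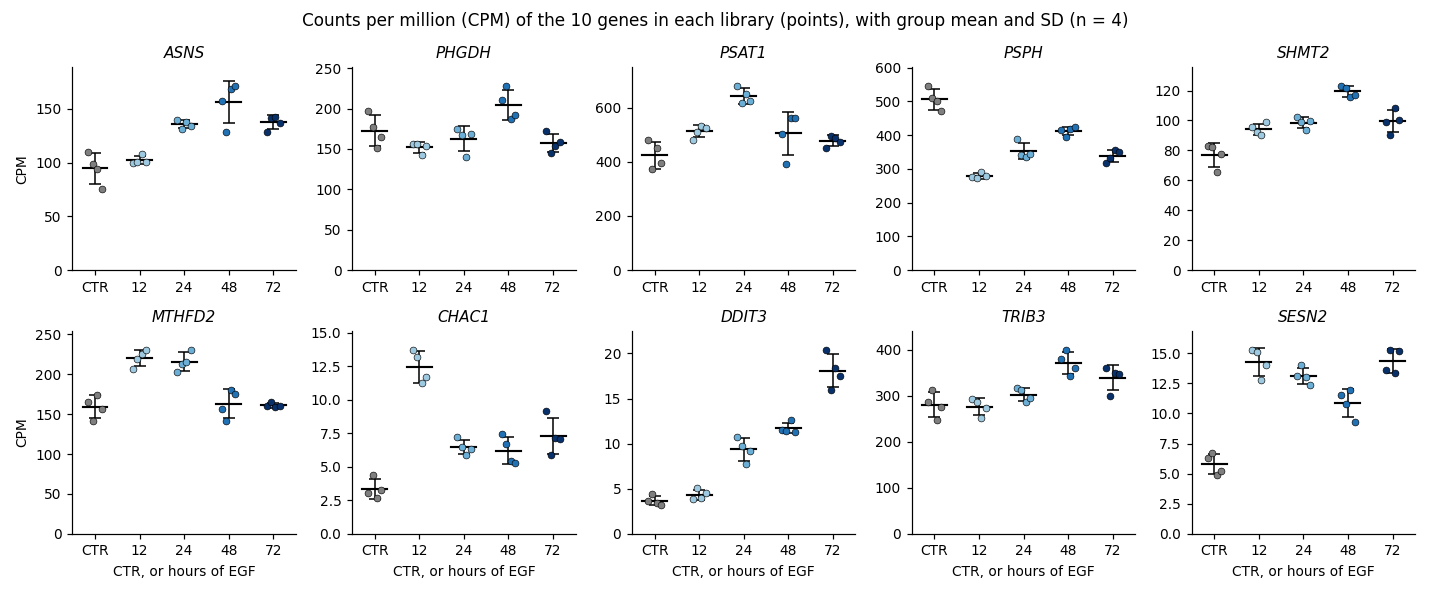
CPM (y axis, from 0) of each of the 10 genes in the control (CTR) and at the 4 times of EGF-treatment (12, 24, 48, 72 h). Points are libraries, horizontal bars the mean and error bars the SD of 4 libraries. PSPH is highest in the control libraries, CHAC1 peaks at 12 h with 12.5 ± 1.19 CPM, and DDIT3 climbs to 18.1 ± 1.86 CPM at 72 h.

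The way the libraries were scaled mattered most at 12 h. When libraries were scaled by their totals alone, the median of all tested genes moved on the log2 scale by -0.28 at 12 h and -0.14 at 24 h, by 0.012 at 48 h, and by -0.076 at 72 h. With that scaling, 3 of the 10 genes were upregulated and 3 downregulated at 12 h, in place of 5 and 1, and all tested genes split into 3581 upregulated and 8275 downregulated, in place of 5433 and 6032. The direction of ASNS, PSAT1 and DDIT3 at 12 h turned to -0.18, -0.013 and -0.042, and SHMT2 was at 0.0087, all above the median of -0.34 that the tested genes then had. PHGDH and TRIB3 became downregulated genes (-0.47 and -0.30). With DESeq2's size factors the counts were 5 and 1 again. At 72 h, scaling by totals gave 6 up and 2 down. All tested genes then split into 4413 upregulated and 5817 downregulated, in place of 5062 and 5115. Their split at 24 h by totals was 3666 and 6421, in place of 4819 and 4898.

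**Figure D2:**
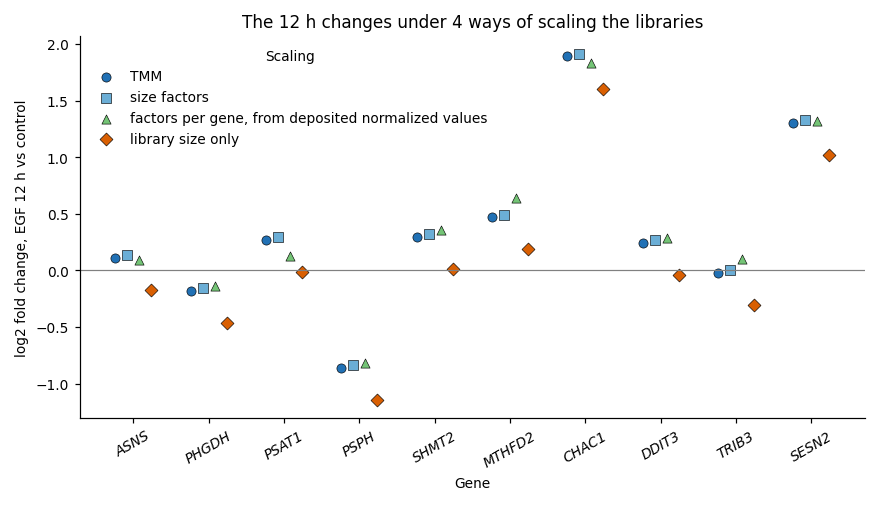
Log2 fold change at 12 h against control (y axis) of each gene (x axis) under 4 scalings of the libraries, 1 symbol each. Scaling by library size alone (diamonds) lies below TMM for every gene and puts ASNS, PSAT1 and DDIT3 below 0. TRIB3 lies on both sides of 0. PHGDH, PSPH, SHMT2, MTHFD2, CHAC1 and SESN2 keep their direction under all 4, SHMT2 at only 0.0087 with library size alone.

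ASNS (ENSG00000070669, chromosome 7, minus strand, 97852118 to 97872542, 14 merged exons) makes asparagine from aspartate and glutamine. The control libraries had 110.4, 99.2, 93.9 and 75.4 CPM. After 12 h the values were 99.6, 100.4, 108 and 101 CPM, and after 24 h they were 139.5, 132, 138 and 134 CPM. All 12 h libraries lay inside the range of the control, and all 24 h libraries lay above it. At 48 h the values were 158, 129, 168 and 171 CPM and at 72 h 129, 142, 143 and 137 CPM, again above every control library. ASNS rose from 24 h on, with 0.11 ± 0.091 at 12 h (adjusted p = 0.293), 0.52 ± 0.091 at 24 h (adjusted p = 3.27e-05), 0.73 ± 0.091 at 48 h (adjusted p = 5.99e-07) and 0.54 ± 0.091 at 72 h (adjusted p = 1.94e-05). The step from 12 to 24 h was upregulation by 0.41 ± 0.091 (adjusted p = 5.95e-04). The neighbouring levels of 24, 48 and 72 h did not pass the threshold, but without replicate 2 of 48 h, which had the lowest value of its group, 48 h lay 0.29 above 24 h (adjusted p = 0.00755) and 72 h lay -0.27 from 48 h (adjusted p = 0.0164). With totals alone these steps were 0.36 (adjusted p = 0.00310) and -0.28 (adjusted p = 0.0257), and the first was 0.24 with at least 10 counts in every library (adjusted p = 0.0279). The non-coding readthrough gene AC079781.5 shares 44.6% of the exon bases of ASNS on the same strand and had 15.9 to 46.7 CPM in control and no called change at any time. How shared reads were counted is not given in the sources used here.

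The 3 enzymes of serine synthesis went different ways. PHGDH oxidizes 3-phosphoglycerate and opens the route, PSAT1 adds the amino group, and PSPH removes the phosphate to release serine. With TMM, PSAT1 was upregulated early, PSPH was downregulated throughout, and PHGDH stayed near its control level.

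PHGDH (ENSG00000092621, chromosome 1, plus strand, 119648411 to 119744226, 24 merged exons) had 197, 177, 152 and 165 CPM in the control libraries. It had 156, 156, 142 and 154 CPM at 12 h and 175, 167, 140.1 and 169 CPM at 24 h. At these times the values overlapped the control, with log2 fold changes of -0.18 ± 0.084 (adjusted p = 0.0572) and -0.084 ± 0.084 (adjusted p = 0.405). At 48 h the values were 211, 228, 188 and 192 CPM, which is 0.25 ± 0.084 against control (adjusted p = 0.0193), with 2 of 4 libraries above every control. At 72 h they were 172, 145, 154 and 159 CPM, back within the control range apart from 1 library under it (-0.13 ± 0.084, adjusted p = 0.177). The call at 48 h depended on single libraries, with an adjusted p of 0.0754 without control replicate 3, 0.058 without control replicate 4 and 0.0761 without replicate 2 of 48 h, 0.0817 when the 8 libraries compared were fitted alone and 0.0916 with factors per gene from the deposited normalized values. The 48 h peak itself held against its neighbours in time, 0.33 ± 0.084 above 24 h (adjusted p = 0.00224) and -0.38 ± 0.084 from 48 to 72 h (adjusted p = 0.00107), without overlap in either case. The lower value at 12 h passed the threshold at -0.18 with the replicate number as a block (adjusted p = 0.0208), at -0.24 without control replicate 3 (adjusted p = 0.0153) and at -0.22 with at least 10 counts in every library (adjusted p = 0.0237). With totals alone PHGDH was downregulated at 12 h (-0.47, adjusted p = 3.67e-05), 24 h (-0.23, adjusted p = 0.0261) and 72 h (-0.21, adjusted p = 0.0383).

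PSAT1 (ENSG00000135069, chromosome 9, plus strand, 78297143 to 78330093, 9 merged exons) had 481, 373, 451 and 394 CPM in control. The values were 482, 512, 531 and 526 CPM at 12 h and 681, 618, 650.4 and 626 CPM at 24 h. All 4 libraries of 24 h were above every library of the other groups, and all 4 of 12 h were above every control, replicate 1 by a narrow margin. PSAT1 was upregulated 1.21-fold at 12 h (0.27 ± 0.090, adjusted p = 0.0103) and 1.52-fold at 24 h (0.60 ± 0.090, adjusted p = 4.51e-06). It then fell: 48 h had 504, 392, 562 and 563 CPM, a change of -0.35 ± 0.090 from 24 h (adjusted p = 0.00244), and 72 h had 452, 497, 489.9 and 472 CPM. Against control, 48 h stood at 0.25 ± 0.090 (adjusted p = 0.0269) and 72 h at 0.17 ± 0.090 (adjusted p = 0.110). The 48 h call was lost without control replicate 2 (0.19, adjusted p = 0.0873), control replicate 4 (0.21, adjusted p = 0.0865), replicate 3 of 48 h (0.20, adjusted p = 0.0976) or replicate 4 of 48 h (0.19, adjusted p = 0.103), and when the 8 libraries compared were fitted alone (0.24, adjusted p = 0.141). With factors per gene from the deposited normalized values, the 12 and 48 h calls were lost (0.13, adjusted p = 0.340 and 0.21, adjusted p = 0.185), and with totals alone the fall from 24 to 48 h was -0.19 (adjusted p = 0.0965). At 72 h the change passed without control replicate 1 (0.23, adjusted p = 0.0382). The 24 h call held under every alternative run.

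PSPH (ENSG00000146733, chromosome 7, minus strand, 56011051 to 56051604, 10 merged exons) was downregulated against control at all 4 times. The control libraries had 546, 509, 500.3 and 471 CPM. At 12 h the values were 275, 272, 289.7 and 278 CPM, and at 24 h 389, 341, 336 and 345 CPM. At 48 h they were 414, 394, 418 and 423 CPM, and at 72 h 316, 331, 355 and 349.9 CPM. Every EGF library was below every control library. PSPH fell to 0.550-fold of control at 12 h (-0.86 ± 0.060, adjusted p = 8.33e-12), and stood at 0.697-fold at 24 h (-0.52 ± 0.060, adjusted p = 7.88e-08), 0.814-fold at 48 h (-0.30 ± 0.060, adjusted p = 2.67e-04) and 0.667-fold at 72 h (-0.58 ± 0.060, adjusted p = 1.07e-08). In order of level, control exceeded 48 h and 48 h exceeded 24 h, while 24 and 72 h did not differ beyond their spread (adjusted p = 0.432) and 12 h was lowest. The recovery was made in steps of 0.34 ± 0.060 from 12 to 24 h (adjusted p = 4.74e-05) and 0.22 ± 0.060 from 24 to 48 h (adjusted p = 0.00331), followed by -0.29 ± 0.060 from 48 to 72 h (adjusted p = 6.08e-04).

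PSPHP1, a pseudogene of PSPH on the same chromosome, has 261 annotated exon bases, where PSPH has 2762. How alike their sequences are was not tested. The pseudogene held 1154 to 3589 counts per library and was the only copy of the 10 genes with more than 3 counts in any library. It moved the same way, from 152 ± 21.5 CPM in control to 66.95 ± 7.55 at 12 h (-1.18 ± 0.10, adjusted p = 2.73e-10), and it had 92.2 ± 10.8 CPM at 24 h. Its level was 120.3 ± 9.94 CPM at 48 h (-0.34 ± 0.098, adjusted p = 0.00722), followed by 96.5 ± 6.61 CPM after 72 h. Reads that match both copies may have been counted for either, so the PSPH values are uncertain to that extent, and the part of shared reads in them was not tested.

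SHMT2 and MTHFD2 carry the next steps in the mitochondrion. SHMT2 cleaves serine to glycine and a folate-bound 1-carbon unit, and MTHFD2 oxidizes that unit towards formate. Their time courses differed: SHMT2 rose at all 4 times and most at 48 h, and MTHFD2 rose at 12 and 24 h and was back at its control level at 48 and 72 h.

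SHMT2 (ENSG00000182199, chromosome 12, plus strand, 57229327 to 57234935, 7 merged exons) had 82.8, 82.2, 65.3 and 77.3 CPM in control. The values were 95.5, 92.5, 90.2 and 98.8 CPM at 12 h, 102, 99.1, 93.9 and 99.4 CPM at 24 h and 123, 122, 116 and 117 CPM at 48 h. At 72 h they were 98.8, 90.4, 109 and 100.01 CPM. No EGF library overlapped the control, and no 48 h library overlapped another group. SHMT2 was upregulated by 0.29 ± 0.071 at 12 h (adjusted p = 7.91e-04) and 0.36 ± 0.071 at 24 h (adjusted p = 1.35e-04), then by 0.64 ± 0.071 at 48 h (adjusted p = 1.01e-07) and 0.37 ± 0.071 at 72 h (adjusted p = 8.39e-05). With libraries scaled by totals alone the 12 h value was 0.0087 (adjusted p = 0.926). The step up to 48 h was 0.28 ± 0.071 (adjusted p = 0.00234) and the step down to 72 h -0.26 ± 0.071 (adjusted p = 0.00517), while the levels of 12, 24 and 72 h could not be told apart.

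MTHFD2 (ENSG00000065911, chromosome 2, plus strand, 74198562 to 74217565, 9 merged exons) had 166, 141, 174 and 156 CPM in control. It had 207, 219.8, 225 and 230.1 CPM at 12 h and 202, 214, 216 and 231 CPM at 24 h. The libraries of these 2 times lay above all others. Upregulation was 1.38-fold at 12 h (0.47 ± 0.074, adjusted p = 5.55e-06) and 1.35-fold at 24 h (0.44 ± 0.074, adjusted p = 2.12e-05). At 48 h the values were 156, 141, 180.03 and 176 CPM and at 72 h 159.9, 165, 159 and 160.2 CPM, a change of -0.40 ± 0.074 from 24 to 48 h (adjusted p = 9.68e-05). The 72 h libraries were all inside the control range, and neither time passed the threshold (adjusted p = 0.718 at 48 h and 0.876 at 72 h). The sign of these late differences depended on single libraries: at 48 h it was -0.019 without control replicate 2, -0.013 without replicate 3 of 48 h and -5.40e-04 without replicate 4 of 48 h, and at 72 h it was -0.041 without control replicate 2. SLC4A5, on the opposite strand, covers 27.2% of the exon bases of MTHFD2 but had only 0.213 to 0.904 CPM in control.

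The 4 stress effectors included the largest changes of the 10 genes, and 3 of them came from low levels. CHAC1 degrades glutathione, DDIT3 encodes the transcription factor CHOP, TRIB3 is a pseudokinase that restrains ATF4 and AKT, and SESN2 dampens mTORC1 signalling when leucine is short. Each followed its own course in time.

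CHAC1 (ENSG00000128965, chromosome 15, plus strand, 40952962 to 40956519, 3 merged exons) was an early gene. Control libraries had 3.06, 4.37, 2.69 and 3.27 CPM, from 61 to 104 counts. At 12 h the values were 13.7, 13.2, 11.2 and 11.7 CPM, and at 24 h 7.22, 6.44, 5.90 and 6.34 CPM. At 48 h they were 7.43, 6.70, 5.39 and 5.30 CPM, and at 72 h 9.13, 5.86, 7.15 and 7.09 CPM. No EGF library overlapped the control, and the 12 h libraries stood above those of the other 4 groups. CHAC1 was upregulated 3.71-fold at 12 h (1.89 ± 0.15, adjusted p = 1.02e-10), 1.93-fold at 24 h (0.95 ± 0.16, adjusted p = 1.58e-05), 1.84-fold at 48 h (0.88 ± 0.16, adjusted p = 6.71e-05) and 2.19-fold at 72 h (1.13 ± 0.16, adjusted p = 1.07e-06). It changed by -0.94 ± 0.14 from 12 to 24 h (adjusted p = 9.03e-06), and the levels of 24, 48 and 72 h did not differ beyond their spread.

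DDIT3 (ENSG00000175197, chromosome 12, minus strand, 57516588 to 57521737, 4 merged exons) was the late gene of the set. The control libraries had 3.67, 4.37, 3.46 and 3.17 CPM, from 66 to 104 counts, and the 12 h libraries 3.84, 5.07, 3.98 and 4.50 CPM. These 2 groups overlapped. At 24 h the values were 10.8, 9.77, 7.69 and 9.18 CPM, at 48 h 11.5, 11.4, 12.6 and 11.3 CPM and at 72 h 20.4, 15.99, 18.4 and 17.5 CPM. From 12 h on, each group lay wholly above the one before it. Against control DDIT3 stood at 0.24 ± 0.13 at 12 h (adjusted p = 0.110), which passed the threshold without control replicate 2 (0.34, adjusted p = 0.0334). It was upregulated 2.55-fold at 24 h (1.35 ± 0.13, adjusted p = 2.08e-09), 3.19-fold at 48 h (1.67 ± 0.12, adjusted p = 7.17e-11) and 4.92-fold at 72 h (2.30 ± 0.12, adjusted p = 6.35e-14). The steps were 1.11 ± 0.12 from 12 to 24 h (adjusted p = 1.12e-07), 0.32 ± 0.11 from 24 to 48 h (adjusted p = 0.0214) and 0.63 ± 0.11 from 48 to 72 h (adjusted p = 9.73e-05). The middle step was lost without replicate 3 of 24 h (0.24, adjusted p = 0.0954), replicate 4 of 24 h (0.31, adjusted p = 0.0511) or replicate 3 of 48 h (0.28, adjusted p = 0.0634), and with factors per gene from the deposited normalized values (0.32, adjusted p = 0.0504). MARS1, a methionyl-tRNA synthetase gene on the opposite strand, overlaps 27.2% of the exon bases of DDIT3. MARS1 was highest at 12 h (175 ± 6.25 CPM, against 109 ± 7.71 in control) and had 129 ± 6.42 CPM at 72 h, where DDIT3 was highest. Whether the counting used strand is not given in the sources used here.

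SESN2 (ENSG00000130766, chromosome 1, plus strand, 28259527 to 28282491, 10 merged exons) rose early and stayed up. Control libraries had 6.33, 6.73, 4.91 and 5.24 CPM. The values were 15.3, 15.1, 12.8 and 14.1 CPM at 12 h and 13.1, 14.01, 13.02 and 12.4 CPM at 24 h. At 48 h they were 11.5, 10.8, 11.9 and 9.25 CPM, and at 72 h 13.6, 15.3, 13.3 and 15.2 CPM. No EGF library overlapped the control, and 48 h was the lowest of the EGF-treatments. SESN2 was upregulated 2.47-fold at 12 h (1.30 ± 0.11, adjusted p = 1.84e-10), 2.26-fold at 24 h (1.18 ± 0.11, adjusted p = 2.08e-09), 1.87-fold at 48 h (0.91 ± 0.11, adjusted p = 3.14e-07) and 2.47-fold at 72 h (1.31 ± 0.11, adjusted p = 2.58e-10). The rise from 48 to 72 h was 0.40 ± 0.10 (adjusted p = 0.00381). The fall from 24 to 48 h, -0.27 ± 0.10 (adjusted p = 0.0324), was lost without replicate 2 of 24 h (-0.24, adjusted p = 0.086), replicate 2 of 48 h (-0.27, adjusted p = 0.0561) or replicate 4 of 48 h (-0.20, adjusted p = 0.123). Of the other alternatives, 4 also lost it, with adjusted p from 0.0543 with the 8 libraries alone to 0.384 with totals alone.

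TRIB3 (ENSG00000101255, chromosome 20, plus strand, 362835 to 397559, 9 merged exons) changed little and late. Its values were 286, 312, 247 and 275 CPM in control, 293, 286, 251 and 274 CPM at 12 h and 317, 312, 286 and 295 CPM at 24 h. These 3 groups overlapped, and neither EGF-treatment passed the threshold (-0.019 ± 0.075, adjusted p = 0.834 at 12 h and 0.11 ± 0.075, adjusted p = 0.206 at 24 h). At 12 h its direction changed with the scaling, from -0.30 (adjusted p = 0.00139) with totals alone to 0.10 with factors per gene taken from the deposited normalized values. At 48 h it had 381, 400.2, 343 and 361 CPM, all above control, an upregulation of 0.41 ± 0.075 (adjusted p = 1.02e-04). At 72 h it had 361, 299, 349 and 347 CPM, with 3 of 4 libraries above every control (0.28 ± 0.075, adjusted p = 0.00279).

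**Figure D3:**
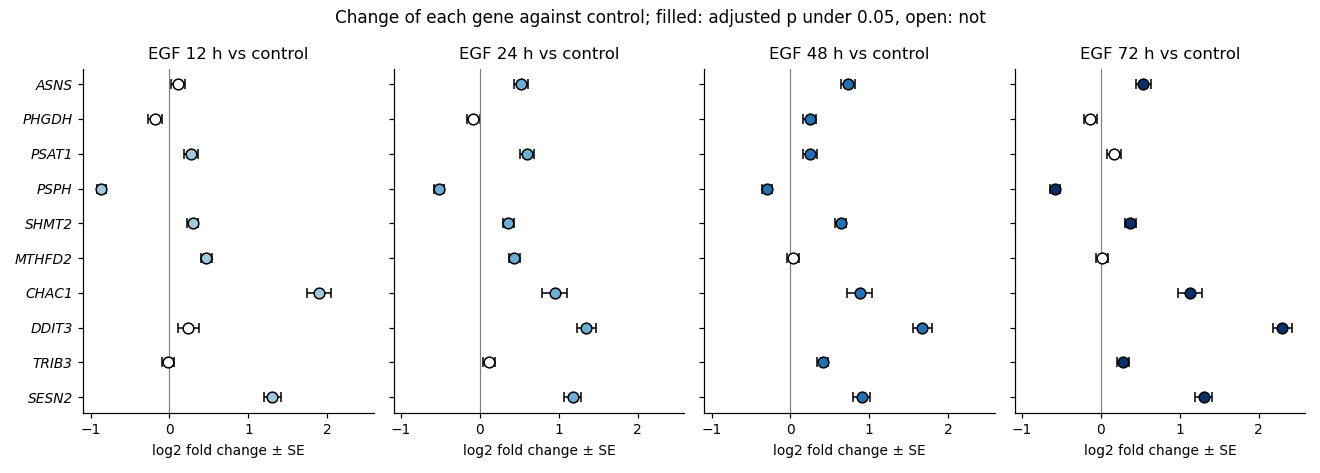
Log2 fold change against control (x axis, ± SE of the edgeR fit) of the 10 genes (y axis) at 12, 24, 48 and 72 h. Filled points have an adjusted p under 0.05. CHAC1 is farthest right at 12 h with 1.89, DDIT3 moves right with time to 2.30, and PSPH stays left of 0 in all 4 panels.

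Between genes, levels were compared per kilobase of merged exon. This length takes in every annotated exon of a gene, 9217 bases for PHGDH and 2188 for PSAT1. The order therefore depends on it, and which transcripts the cells made was not tested. In control, PSAT1 (194 ± 22.9 CPM per kb) and PSPH (183 ± 11.2 CPM per kb) were highest, followed by TRIB3 (81.5 ± 7.94) and MTHFD2 (32.7 ± 2.91). ASNS, PHGDH and SHMT2 were next with 21.3 ± 3.28, 18.7 ± 2.08 and 15.9 ± 1.68 CPM per kb, and DDIT3 (2.81 ± 0.392), SESN2 (1.68 ± 0.251) and CHAC1 (1.63 ± 0.352) were lowest. At 12 h the gap between PSAT1 (234 ± 10.02 CPM per kb) and PSPH (101 ± 2.87 CPM per kb) had opened, and at 72 h DDIT3 (13.8 ± 1.42 CPM per kb) had left the low group. DDIT3, SESN2 and CHAC1 had the 3 largest upregulations of the 10 at 24, 48 and 72 h.

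Over the 5 group means of log2 CPM, each centred on its own mean, SHMT2 and TRIB3 were the most alike pair of the 10 genes, with a root mean square difference of 0.11. CHAC1, highest at 12 h, and DDIT3, highest at 72 h, were the least alike, at 0.97. SHMT2 was nearest to the mean profile of the 10 genes (0.092). Among the 13871 other genes with a mean of at least 1 CPM, the nearest to that mean profile were DUS2 (0.026), TBCE (the row ENSG00000285053, 0.039), FLYWCH1 (0.044), AC244502.1 (0.052), CNKSR1 (0.052) and LONP1 (0.052), the last of which encodes a mitochondrial protease. These are likenesses over 5 means only. Of the 40 pairs of neighbouring groups in the ordered levels of the 10 genes, 16 differed past the threshold.

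The mRNA of ATF4 itself was highest at 12 h. Control libraries had 903, 999.6, 765 and 870.1 CPM, and 12 h libraries 1469.8, 1442, 1397 and 1398 CPM, all above the control. ATF4 was upregulated 1.61-fold at 12 h (0.69 ± 0.075, adjusted p = 1.67e-08). At 24 h it had 794, 889, 864 and 923 CPM, within the control range (-0.028 ± 0.074, adjusted p = 0.767). At 48 h it had 794, 799, 674 and 691 CPM and at 72 h 811, 706, 730.2 and 751 CPM, slightly lower than control (-0.26 ± 0.074, adjusted p = 0.00639 and -0.24 ± 0.074, adjusted p = 0.00784). At 24, 48 and 72 h, when ASNS, DDIT3 and SESN2 were upregulated, ATF4 mRNA was not. At 12 h, when ATF4 mRNA was highest, PSAT1, SHMT2, MTHFD2, CHAC1 and SESN2 were upregulated, and CHAC1 had its highest level. The 48 h difference of ATF4 had an adjusted p of 0.0544 when the 8 libraries compared were fitted alone. With totals alone ATF4 was called lower at 24 h (-0.17, adjusted p = 0.0459). Protein levels were not measured in these libraries.

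Among the factors that pair with or resemble ATF4, CEBPB, a C/EBP partner, was upregulated at 12, 24 and 48 h (0.30 ± 0.072, 0.29 ± 0.072 and 0.32 ± 0.071, adjusted p = 7.65e-04, 0.00137 and 6.68e-04), with 4, 4 and 3 libraries above all controls. With totals alone the 12 and 24 h calls of CEBPB were lost (0.013, adjusted p = 0.892 and 0.14, adjusted p = 0.115). CEBPG, another partner, passed the threshold at 12, 24 and 72 h (0.29 ± 0.12, 0.35 ± 0.12 and 0.30 ± 0.12), but with overlap, and it lost each of these calls without control replicate 2 (adjusted p = 0.143, 0.0638 and 0.125). ATF3, a stress-induced repressor and activator of the same family, had 18.99, 17.4, 17.5 and 16.1 CPM in control, 26.5, 22.8, 27.7 and 26.6 CPM at 48 h and 52.1, 51.9, 48.7 and 49.8 CPM at 72 h. It rose late, by 0.57 ± 0.077 at 48 h (adjusted p = 1.89e-06) and 1.53 ± 0.077 at 72 h (adjusted p = 2.11e-14), with no overlap with the control. ATF5, whose translation is regulated like that of ATF4, was low throughout and fell from 4.99 ± 1.01 to 3.04 ± 0.309 CPM at 24 h (-0.71 ± 0.15, adjusted p = 3.09e-04), a call that was lost with factors per gene from the deposited normalized values (-0.62, adjusted p = 0.553).

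**Figure D4:**
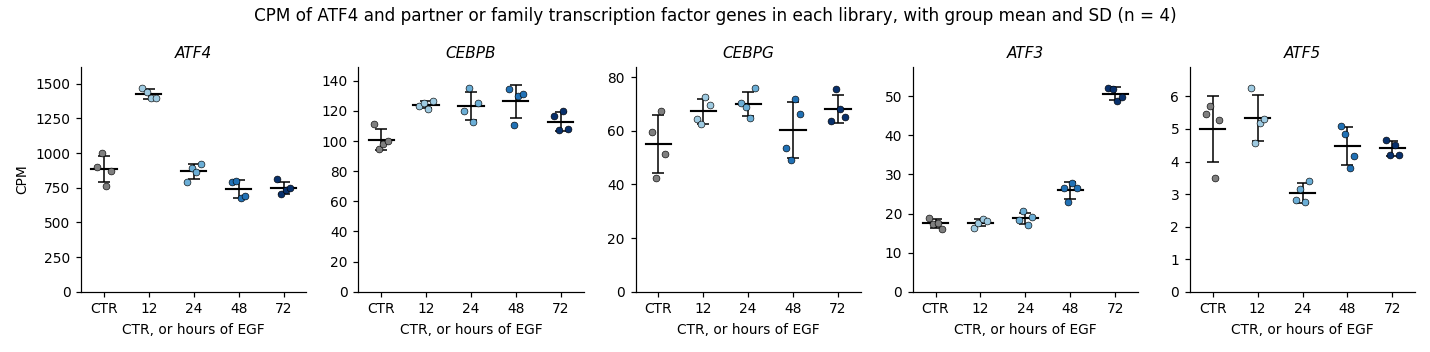
CPM (y axis, from 0) of ATF4, CEBPB, CEBPG, ATF3 and ATF5 in the control (CTR) and at the 4 times of EGF-treatment (12, 24, 48, 72 h), with points for libraries and mean and SD for 4 libraries. ATF4 peaks at 12 h (1427 ± 35.4 CPM against 884 ± 96.6 in control), and ATF3 rises to 50.6 ± 1.66 CPM at 72 h.

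Genes that act above ATF4 moved in both directions, as all tested genes did. Of 14 genes for eIF2 kinases, eIF2, eIF2B and the eIF2 phosphatase, 8, 8, 2 and 7 were upregulated and 2, 3, 3 and 1 downregulated at 12, 24, 48 and 72 h, with medians of 0.30, 0.25, -0.00246 and 0.24. Among all tested genes, 32.9%, 29.2%, 24.0% and 30.6% were upregulated and 36.5%, 29.6%, 21.8% and 31.0% downregulated. In total 10, 11, 5 and 8 of the 14 changed, where 69.4%, 58.8%, 45.8% and 61.6% of all did. At 12, 48 and 72 h these totals are near or below the share of all genes and say nothing particular about the list. PPP1R15A, the stress-induced phosphatase subunit that reverses eIF2 phosphorylation, was upregulated at all 4 times, 4.79-fold at 12 h (2.26 ± 0.11, adjusted p = 1.73e-14) and 4.49-fold at 72 h (2.17 ± 0.11, adjusted p = 4.16e-14). Its constitutive counterpart PPP1R15B rose by 0.74 ± 0.076 at 12 h (adjusted p = 5.90e-09). EIF2B1, a subunit of the eIF2 exchange factor, was downregulated at 12 h (-0.70 ± 0.070, adjusted p = 4.64e-09). The kinase EIF2AK4, which senses uncharged tRNA, rose by 0.28 ± 0.055 at 48 h (adjusted p = 1.80e-04), a call that was lost with factors per gene from the deposited normalized values (0.073, adjusted p = 0.562).

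Of 18 other ATF4 targets, 17 were tested and 10, 9, 8 and 9 were upregulated at the 4 times, with 2, 3, 1 and 1 downregulated and medians of 0.62, 0.36, 0.33 and 0.46. Among all tested genes, 32.9%, 29.2%, 24.0% and 30.6% were upregulated and 36.5%, 29.6%, 21.8% and 31.0% downregulated. In total 12 and 10 of the 17 changed at 12 and 72 h, near the 69.4% and 61.6% of all tested genes. CTH, which makes cysteine from cystathionine, rose 3.84-fold at 24 h (1.94 ± 0.085, adjusted p = 2.13e-15) and 4.89-fold at 72 h (2.29 ± 0.085, adjusted p = 7.68e-17). DDIT4, an inhibitor of mTORC1, rose from 12.4 ± 1.01 to 65.9 ± 7.01 CPM at 24 h (2.41 ± 0.088, adjusted p = 6.94e-17). GDF15, a secreted stress hormone, was nearly absent in control (0.213 ± 0.115 CPM) and reached 11.4 ± 1.88 CPM at 72 h (adjusted p = 3.94e-16). NUPR1, a stress-response chromatin protein, went the other way, from 131 ± 22.1 to 65.7 ± 2.56 CPM at 12 h (-0.999 ± 0.11, adjusted p = 1.52e-08).

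Genes of amino acid uptake and tRNA charging were upregulated more often than downregulated at each time. Among all tested genes, 32.9%, 29.2%, 24.0% and 30.6% were upregulated and 36.5%, 29.6%, 21.8% and 31.0% downregulated. Of 9 amino acid transporters, 8, 9, 6 and 6 were upregulated and 0, 0, 1 and 1 downregulated, with medians of 0.70, 0.64, 0.39 and 0.42. SLC38A2, a sodium-coupled neutral amino acid carrier, rose from 249.9 ± 54.6 to 925 ± 47.04 CPM at 12 h (1.89 ± 0.13, adjusted p = 2.48e-11), and SLC1A4, which carries serine and alanine, rose by 1.11 ± 0.070 at 24 h (adjusted p = 2.30e-12). Of 12 cytosolic aminoacyl-tRNA synthetases, 8, 10, 7 and 6 were upregulated and 0, 0, 0 and 1 downregulated, with medians of 0.42, 0.38, 0.24 and 0.14. Their totals called at 12 and 72 h, 8 and 7 of 12, are near the 69.4% and 61.6% of all tested genes. WARS1, for tryptophan, rose by 1.59 ± 0.10 at 12 h and 2.26 ± 0.11 at 72 h (adjusted p = 2.58e-12 and 6.51e-15), and GARS1, for glycine, by 1.03 ± 0.060 at 24 h (adjusted p = 4.76e-13). With libraries scaled by totals alone, the 12 h counts were 6 up and 1 down for transporters, 6 and 4 for synthetases, 7 and 5 for the other ATF4 targets, and 5 and 3 for the eIF2 genes. At 24 h they were 7 and 1 for synthetases and 6 and 6 for the eIF2 genes.

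**Figure D5:**
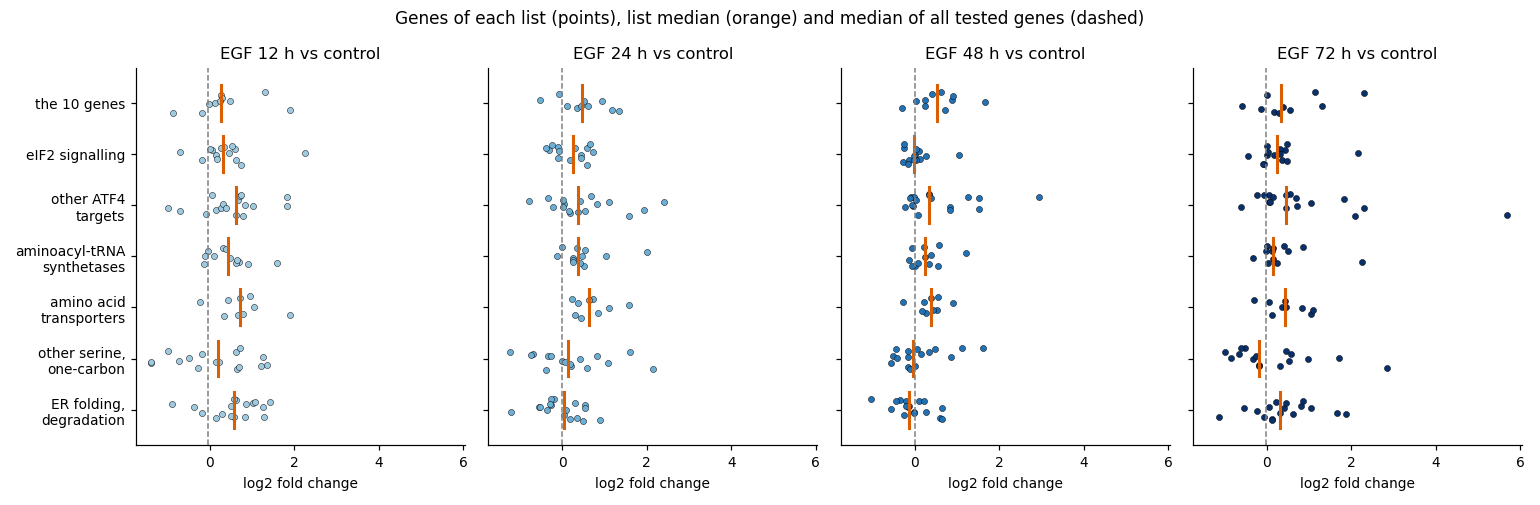
Log2 fold change against control (x axis) of the 10 genes and the genes of 6 other lists (y axis) at the 4 times, with 1 point per gene, the list median in orange and the median of all tested genes dashed. The transporter points lie mostly right of the dashed line, with a median of 0.70 at 12 h, while the other serine and 1-carbon genes spread to both sides.

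The other serine, glycine and folate genes moved in both directions, as all tested genes did. Of 18, 16 were tested, with 8, 6, 4 and 7 upregulated, 6, 5, 4 and 7 downregulated, and medians of 0.19, 0.13, -0.044 and -0.19. Among all tested genes, 32.9%, 29.2%, 24.0% and 30.6% were upregulated and 36.5%, 29.6%, 21.8% and 31.0% downregulated. At 48 h the total of 8 called is near the 45.8% of all genes, and at 12 h the downregulated part is near that of all. Scaled by totals alone, the 12 h counts were 6 up and 7 down. MTHFD1L, the mitochondrial formate-releasing enzyme downstream of MTHFD2, rose 2.56-fold at 12 h (1.36 ± 0.079, adjusted p = 2.78e-13), and SFXN3, a mitochondrial serine carrier, 3.04-fold at 24 h (1.60 ± 0.17, adjusted p = 1.49e-08). SRR, the serine racemase, fell from 20.97 ± 1.67 to 8.03 ± 0.677 CPM at 12 h (-1.38 ± 0.11, adjusted p = 5.60e-11).

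Some paralogs of the 10 genes were called in the other direction. SESN1 and SESN3, the relatives of SESN2, were downregulated at some times. SESN1 was downregulated at 12 h (-0.80 ± 0.100, adjusted p = 1.68e-07), 24 h and 72 h, but was not called lower at 48 h. SESN3 was downregulated at 48 h (-0.88 ± 0.10, adjusted p = 2.30e-07) and 72 h, but was not called lower at 24 h. SHMT1, the cytosolic counterpart of SHMT2, was at -0.74 ± 0.096 at 12 h (adjusted p = 3.59e-07). TRIB1 and TRIB2 were upregulated at all 4 times, TRIB1 4.95-fold at 12 h (2.31 ± 0.099, adjusted p = 1.19e-15), while TRIB3 at that time was at -0.019. Of the 7 paralogs, 3, 4, 2 and 3 were upregulated and 3, 2, 1 and 3 downregulated, with medians of 0.20, 0.32, -0.15 and 0.18. Among all tested genes, 32.9%, 29.2%, 24.0% and 30.6% were upregulated and 36.5%, 29.6%, 21.8% and 31.0% downregulated. Scaled by totals alone, the 24 h counts were 3 and 3.

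Chaperones and degradation factors of the endoplasmic reticulum (ER), which answer to a separate arm of the unfolded protein response as well as to ATF4, were mostly upregulated at 12 and 72 h. Of 17 genes, 13, 7, 4 and 10 were upregulated and 2, 7, 5 and 3 downregulated, with medians of 0.58, 0.049, -0.13 and 0.32. Among all tested genes, 32.9%, 29.2%, 24.0% and 30.6% were upregulated and 36.5%, 29.6%, 21.8% and 31.0% downregulated. Scaled by totals alone, the counts were 3 up and 8 down at 24 h and 8 and 4 at 72 h. HSPA5, the main ER chaperone, had 215 ± 13.1 CPM in control, 524 ± 24.97 CPM at 12 h, then 312 ± 14.1 and 340.00 ± 27.1 CPM in the next groups, and 794 ± 44.9997 CPM at 72 h. Its changes were 1.28 ± 0.066 at 12 h (adjusted p = 2.89e-14) and 1.88 ± 0.067 at 72 h (adjusted p = 3.59e-17). HERPUD1, of ER-associated degradation, rose by 1.66 ± 0.064 at 72 h (adjusted p = 1.54e-16), and the mRNA of the transcription factor XBP1 fell at all 4 times, to -1.21 ± 0.051 at 24 h (adjusted p = 1.30e-15).

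Compared with the group before it in time, each EGF-treatment moved other members of the 10. Between 12 and 24 h, 5 changed (53.7% of all tested genes). Of these, ASNS, PSAT1, PSPH and DDIT3 rose (27.9% of all) and CHAC1 fell (25.9% of all). Between 24 and 48 h, 8 changed (50.2% of all). PHGDH, PSPH, SHMT2, DDIT3 and TRIB3 rose (25.9% of all), TRIB3 by 0.30 ± 0.075 (adjusted p = 0.00220), and PSAT1, MTHFD2 and SESN2 fell (24.3% of all). Between 48 and 72 h, 5 changed (35.7% of all). DDIT3 and SESN2 rose while PHGDH, PSPH and SHMT2 fell (17.9% of all in each direction). DDIT3 is the only one of the 10 that rose at each of the 3 steps. Without replicate 2 of 48 h, ASNS passed and SESN2 did not between 24 and 48 h, and ASNS passed as well between 48 and 72 h. Scaled by totals alone, 7 of the 10 rose and 1 fell between 12 and 24 h, 6 rose and 1 fell between 24 and 48 h, and 2 rose and 5 fell between 48 and 72 h. Of the 16522 tested genes, 6107, 5948 and 2132 rose at these 3 steps under that scaling, and 2796, 2337 and 4175 fell.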

How the data were processed

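The libraries (Lexogen Corall mRNA kit) were read on an Illumina NS500. The authors deposited, per comparison, one table with an estimated count of reads per gene in each of the 20 libraries. These counts are whole numbers and not normalized, and were used as deposited. The authors also deposited a normalized value per gene and library, a rounded score on the scale of counts that they made with DESeq2 in the SARTools pipeline. The factor between count and normalized value varied between genes, which the sources used here do not describe, so these values served only as an alternative. The submitters' processing notes name hg38. The aligner, the counter, the annotation, and the use of strand and of molecular identifiers are not given in the sources used here. The tables' fold changes and p-values are the authors' own comparisons and were not used.

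Genes were filtered with edgeR's filterByExpr, which left 16522 of 60271, and counts were normalized by TMM and tested with edgeR 4.0.16 (quasi-likelihood, R 4.3.3), in 1 fit of all 5 groups, without a replicate block and with Benjamini-Hochberg adjustment over all tested genes. The threshold was 0.05. The script was tested on simulated data. The libraries held 15611961 to 25856953 counts, so counting error is small for most of the 10 genes and largest for CHAC1 and DDIT3. Alternatives were scaling by totals, DESeq2's size factors, the DESeq2 1.42.0 Wald test, no filter, at least 10 counts in every library, the 8 libraries of a comparison alone, a replicate block, leaving out each library, and, chosen after seeing the data, factors per gene from the deposited normalized values (11956 genes with at least 20 counts) and no mitochondrial genes. Positions and exon lengths are from GENCODE 29 (GRCh38) and promoters from RefSeq (GRCh38.p14).

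The 10 genes and the other lists were chosen with earlier results of these data known. Named from each list were, at each time, up to 2 genes with the largest rise and up to 2 with the largest fall among those past the threshold. An item that this rule would name is not reported here. PSPHP1 and the overlapping genes were chosen after their values or positions were seen.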

Additional observations from a re-analysis of the deposited data

Results flagged for a closer look

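In 4 of the 50 groups of 4 libraries formed by the 10 genes, a single library stood far from the other 3 by Dixon's ratio of its gap to the range of the group, where chance gives about 1 in 20 groups. They were ASNS at 12 h, where replicate 3 was highest with 108 CPM, PHGDH at 12 h, where replicate 3 was lowest with 142 CPM, PSPH at 24 h, where replicate 1 was highest with 389 CPM, and DDIT3 at 48 h, where replicate 3 was highest with 12.6 CPM.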

How the results depend on the processing

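Of the 70 results for the 10 genes in 7 comparisons, 48 passed the threshold, and 41 of these kept direction and call in every alternative run. Of the 22 that did not pass, 2 kept direction and side everywhere. The number of the 10 genes called was 5 to 7 at 12 h, 8 to 9 at 24 h, 7 to 9 at 48 h and 7 to 8 at 72 h over all alternatives. Between 12 and 24 h it was 8 with scaling by library totals, where TMM gave 5. Of all tested genes, 6107 then rose and 2796 fell, in place of 4608 and 4271. The number of neighbouring levels that differed was 14 to 22 of 40.

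With scaling by library totals, the sign turned at 12 h for ASNS (-0.18), PSAT1 (-0.013), DDIT3 (-0.042), ATF3 (-0.27) and ATF5 (-0.19), at 24 h for TRIB3 (-0.031) and ATF3 (-0.043), at 72 h for MTHFD2 (-0.061), between 12 and 24 h for MTHFD2 (0.11) and SESN2 (0.017), and between 24 and 48 h for CHAC1 (0.082). By its construction this scaling moves all genes together, by the median shifts given above. With factors per gene, it turned for TRIB3 at 12 h (0.10) and between 12 and 24 h (-0.020), KLHL24 at 12 h (0.15) and ATF5 at 48 h (2.13), and the cause was not tested. With at least 10 counts in every library, it turned for ATF3 at 12 h (-0.023) and MTHFD2 between 12 and 24 h (0.0084). TRIB3 at 12 h was 0.0050 with the DESeq2 Wald test, 0.0050 with DESeq2's size factors and 0.018 with no filter. Leaving out 1 library gave ranges across 0 for ATF3 at 12 h (-0.021 to 0.057), ATF4 at 24 h (-0.090 to 0.037), ATF5 at 12 h (-0.039 to 0.18), MTHFD2 at 48 h (-0.019 to 0.10), at 72 h (-0.041 to 0.059) and between 48 and 72 h (-0.085 to 0.028), and TRIB3 at 12 h (-0.073 to 0.041). Leaving out mitochondrial genes changed 0 of the 70 results.

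Over pairs of groups, the deviations of libraries with the same replicate number correlated at -0.24 to 0.35. For libraries with different numbers the range was -0.32 to 0.26. These ranges overlap and cannot decide whether the numbers pair the libraries, and the labels do not say. With the replicate number as a block, PHGDH at 12 h passed the threshold (-0.18, adjusted p = 0.0208 by edgeR's quasi-likelihood test), which made 7 genes called at 12 h, and it changed no other call of the 10 genes.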
